A study of Homo sapiens with 21 samples.

Results

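The 57 genes described here lie along the long arm of human chromosome 14 (14q), from APEX1 near the centromere to AKT1 near the telomere, and were measured by RNA sequencing in the human neuroblastoma line NLF and its derivatives. They were taken by symbol from a table of 57820 gene rows. Each symbol matched 1 row, each row was annotated to chromosome 14, and all 57 were among the 16092 genes with an FPKM (fragments per kilobase of transcript, scaled to the total of the library) of at least 1 in at least 3 libraries. The members were chosen by their RNA levels in these libraries, compared between the lines, so differences between lines are given below as a description. Where members past a limma threshold are counted in such a comparison, the count describes the set and is not evidence for a difference. DNA copy number was not measured.

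The 21 libraries form 7 groups of 3. Parental NLF cells carried no lentivirus. The sgCON line was transduced with a lentivirus that brings Cas9 and a scrambled guide, and the YAPKO1 and YAPKO2 lines had YAP1, a transcriptional coactivator restrained by the Hippo pathway, disrupted with Cas9. Parental cells were given DMSO. Each of the other 3 lines was given DMSO or 20 nM trametinib, an inhibitor of the MEK kinases, for 72 h. The labels of the samples put DMSO at 0.01%, and the text of the series puts it at 0.1%. Nothing states whether a transduced line is 1 clone or a pool, or whether the 3 libraries of a group are separate cultures, so p-values measure the spread between these libraries, which may be technical.

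Human chromosome 14 is acrocentric, so nearly all of its protein-coding genes lie on the long arm. Loss of parts of 14q is a recurrent change in neuroblastoma tumours and cell lines. The RNA of a gene tends to follow the number of its copies, but loosely, since regulation of single genes adds to or hides the effect, and a dose change is therefore read from many neighbouring genes together. The members include proteasome subunits, chromatin and repair enzymes, translation factors, parts of the secretory pathway, signalling proteins and chaperones, most of which are needed in every dividing cell.

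YAP1, the targeted gene, was checked first. It stood at 29.4, 32.8 and 33.4 FPKM in parental cells, at 25, 24.2 and 27.7 in sgCON in DMSO, at 13.2, 12.9 and 9.06 in YAPKO1 in DMSO, and at 3.17, 2.69 and 2.81 in YAPKO2 in DMSO. The order matches the labels, with no overlap between sgCON and either knockout line. The files hold no read counts, and depth relative to the first parental library, estimated from low values, ran from 0.763 to 1.64. Libraries also differed in how genes rich in G and C bases stood against genes poor in them. The median of genes at or above the upper quartile of transcript GC content minus that of genes at or below the lower quartile, each gene centred on its mean over the libraries, ran from -0.59 to 1.33 on the log2 scale. It was 0.67 in YAPKO1 in DMSO replicate 3 and 1.33 in YAPKO2 in trametinib replicate 2, against -0.59 to -0.54 in parental cells. The median member has a transcript GC content of 43.6%, and the median other protein-coding gene 49.7%, so this trend bears on every value of the set. Medians of the set, of its stretches and of its functional groups are therefore also given with each library's trend removed by a spline, relative to other protein-coding genes. The FPKM values of single genes are not corrected. Adrenergic neuroblastoma markers summed to 253 to 269 FPKM in parental cells. In DMSO they summed to 246 to 258 in sgCON, 286 to 370 in YAPKO1 and 396 to 439 in YAPKO2, and in trametinib to 307 to 333, 431 to 492 and 504 to 679. Blood and endothelial markers to at most 0.568 and epithelial markers to at most 0.218. Fibroblast markers, which NLF cells express, summed to 836 to 905 in parental cells, 436 to 522 in sgCON in DMSO, 219 to 493 in YAPKO1 in DMSO and 381 to 615 in YAPKO2 in DMSO. In trametinib they summed to 457 to 583, 184 to 265 and 200 to 345 in the same order. Sums follow the most abundant markers, and single markers did not always move together. In YAPKO2 against parental cells 3 of 6 fibroblast markers were higher (limma, adjusted p under 0.05, 20.0% of all tested genes) and 2 lower (17.8%). Of 9 tested adrenergic markers, 4 were higher (6.18%) and 1 lower (5.81%) in YAPKO1 against sgCON in DMSO. In YAPKO2 against sgCON in DMSO 5 were higher (14.1%) and 0 lower (13.1%). The part of these marker shifts in the member values, with or without trametinib, was not tested.

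NEK9 and GALC were nearly absent from the sgCON line and present in all the others. NEK9 encodes a kinase that acts in mitosis and spindle assembly. GALC encodes galactosylceramidase, the lysosomal enzyme missing in Krabbe disease. The start regions of both are shown because these 2 genes set the sgCON line apart most sharply, and the density of CG pairs describes each start. Each run covers 250 bases before to 50 bases after the start on the minus strand, from RefSeq on build GRCh38.p14, with every CG pair in capitals. The NEK9 run is chr14:75126999-75127298 and the GALC run is chr14:87993133-87993432, the first of 4 GALC starts in the table.
NEK9: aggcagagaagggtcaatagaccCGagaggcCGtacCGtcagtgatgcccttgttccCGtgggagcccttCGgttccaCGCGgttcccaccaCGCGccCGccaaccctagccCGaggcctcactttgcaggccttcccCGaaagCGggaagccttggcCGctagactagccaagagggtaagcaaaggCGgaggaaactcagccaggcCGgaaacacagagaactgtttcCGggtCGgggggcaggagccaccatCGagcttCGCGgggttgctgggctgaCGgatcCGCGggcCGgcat
GALC: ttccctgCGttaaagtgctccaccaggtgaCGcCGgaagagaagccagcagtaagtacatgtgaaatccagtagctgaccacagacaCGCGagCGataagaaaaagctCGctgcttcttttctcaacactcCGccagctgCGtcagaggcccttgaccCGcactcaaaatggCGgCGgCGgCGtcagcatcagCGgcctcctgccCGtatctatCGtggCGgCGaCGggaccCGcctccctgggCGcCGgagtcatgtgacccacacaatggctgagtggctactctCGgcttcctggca
The NEK9 run holds 25 CG pairs and 64.7% G and C. The GALC run holds 24 CG pairs and 60.0% G and C, and the runs of the other GALC starts, which lie close by without overlapping it, hold 2, 2 and 45 CG pairs, so no single density describes this gene. Of the 35116 human start regions of this length in the table, 32.0% hold at least as many CG pairs as that of NEK9 and 33.9% as many as that of GALC. Across the 52 members with an entry the median was 24.5 CG pairs, against 14 over all start regions. DNA methylation was not measured.

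NEK9 stood at 7.43, 8.50 and 8.70 FPKM in parental cells and at 0.501, 0.393 and 0.219 in sgCON in DMSO. It stood at 7.13, 9.40 and 6.46 in YAPKO1 in DMSO and at 10.6, 9.10 and 9.45 in YAPKO2 in DMSO. With trametinib the sgCON libraries were lower still, at 0.114, 0.0587 and 0.125, while YAPKO1 held 8.22, 8.34 and 7.16 and YAPKO2 held 8.26, 9.76 and 8.61. All 6 sgCON libraries thus lay below every library of the other lines by a wide margin. On the log2(FPKM + 0.5) scale, which understates the change of a gene this low, the change of sgCON in DMSO from parental cells was -3.33 ± 0.15 (SE).

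GALC stood at 2.72, 3.39 and 4.70 FPKM in parental cells and at 0.0393, 0 and 0.0399 in sgCON in DMSO. With trametinib the sgCON libraries were listed at 0.0381, 0 and 0. YAPKO1 held 2.90, 4.33 and 2.30 in DMSO and 3.22, 2.27 and 2.45 in trametinib. YAPKO2 held 1.92, 2.00 and 1.89 in DMSO and 2.19, 2.13 and 3.36 in trametinib. No sgCON library overlapped any other, and the knockout lines stood at or below the parental level. The log2 change of sgCON from parental cells was -2.94 with a standard error of 0.22. Among all tested protein-coding genes, 4 were lower in sgCON than in parental cells by as much as GALC. Of these 4, only NEK9 and GALC were also at least 4-fold higher in both knockout lines than in sgCON. This filter was chosen after the values of both were seen.

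The nearest tested genes on either side were reduced far less. TMED10, the member next to NEK9 in gene order, carries cargo in early secretory vesicles. It stood at 114, 106 and 105 FPKM in parental cells, 62.2, 51.8 and 63.5 in sgCON, 81.6, 79.4 and 77 in YAPKO1 and 72.0, 85.8 and 75.6 in YAPKO2, all in DMSO. On the other side of NEK9, ACYP1 and MLH3 differed between sgCON and parental cells by -0.11 and -0.14 on the log2 scale with the GC trend removed, against -3.30 for NEK9. SEL1L, a part of the machinery that removes misfolded proteins from the endoplasmic reticulum, lies 2 tested genes before GALC. Its levels were 16.6, 14.1 and 13.8 FPKM in parental cells, 8.01, 6.57 and 6.96 in sgCON, 9.55, 7.80 and 5.21 in YAPKO1 and 8.02, 4.97 and 6.97 in YAPKO2. FLRT2 and SPATA7, directly beside GALC, differed by -0.44 and -0.02 on the same scale, against -2.89 for GALC.

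**Figure D1:**
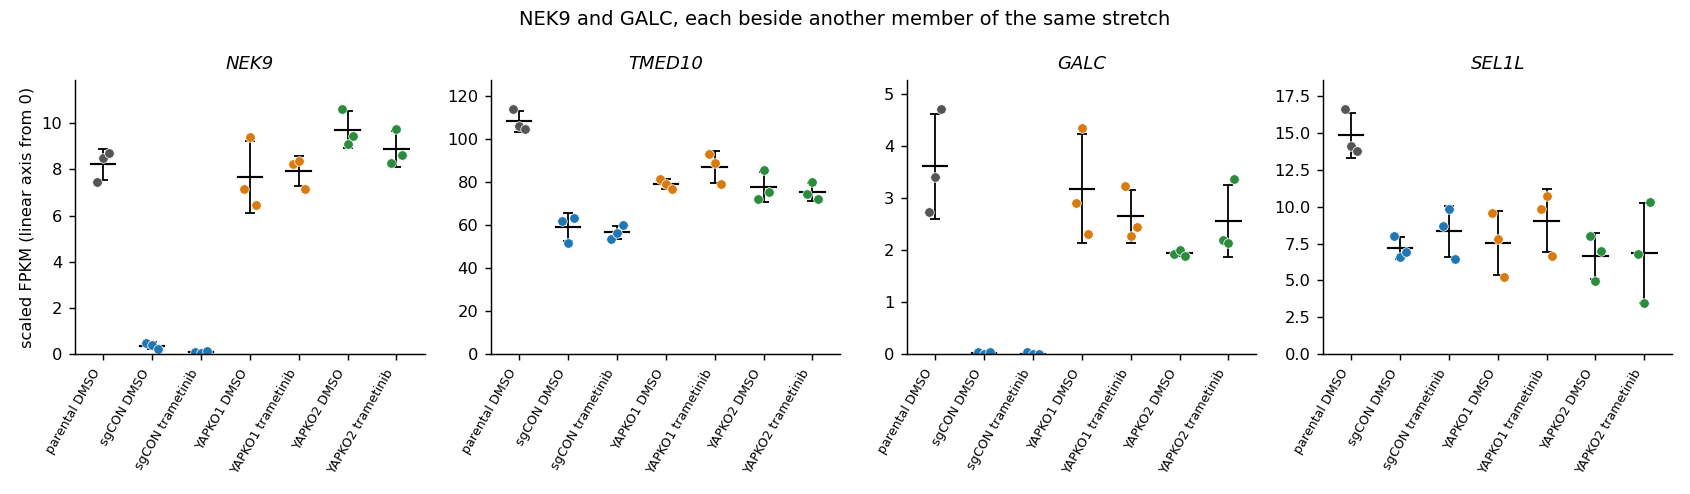
Scaled FPKM (linear axes from 0) of NEK9 and GALC, each beside another member of the same stretch, in every library of the 7 groups. Points are libraries, and lines with bars are the mean and SD of 3. NEK9 and GALC lie near 0 in the 6 sgCON libraries only, while TMED10 in sgCON stays above 50 and SEL1L is low in all 3 transduced lines.

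Taken over all 57 members, the set was highest in parental cells. The member median minus the median of 12107 other protein-coding genes, with each gene centred on its mean over the 21 libraries, was 0.39, 0.36 and 0.34 in parental cells and -0.07, -0.02 and -0.06 in sgCON in DMSO. It was 0.30, 0.27 and -0.14 in YAPKO1 and -0.11, -0.25 and -0.16 in YAPKO2, both in DMSO. The third YAPKO1 library stood apart from its group, and it is the library with the high GC trend. After GC correction the YAPKO1 libraries stood at 0.18, 0.22 and 0.10, beside 0.20, 0.15 and 0.22 in parental cells. On the same corrected scale sgCON stood at -0.22, -0.16 and -0.18, and YAPKO2 between them at -0.08, -0.08 and -0.09. Parental and YAPKO1 libraries overlapped on that scale, and sgCON and YAPKO2 overlapped neither these nor each other. In trametinib the corrected values were -0.21, -0.24 and -0.18 in sgCON, 0.21, 0.19 and 0.20 in YAPKO1 and -0.03, -0.05 and -0.08 in YAPKO2, so each line kept its place. In bulk RNA, fewer cells with a full level and less RNA in every cell cannot be told apart.

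**Figure D2:**
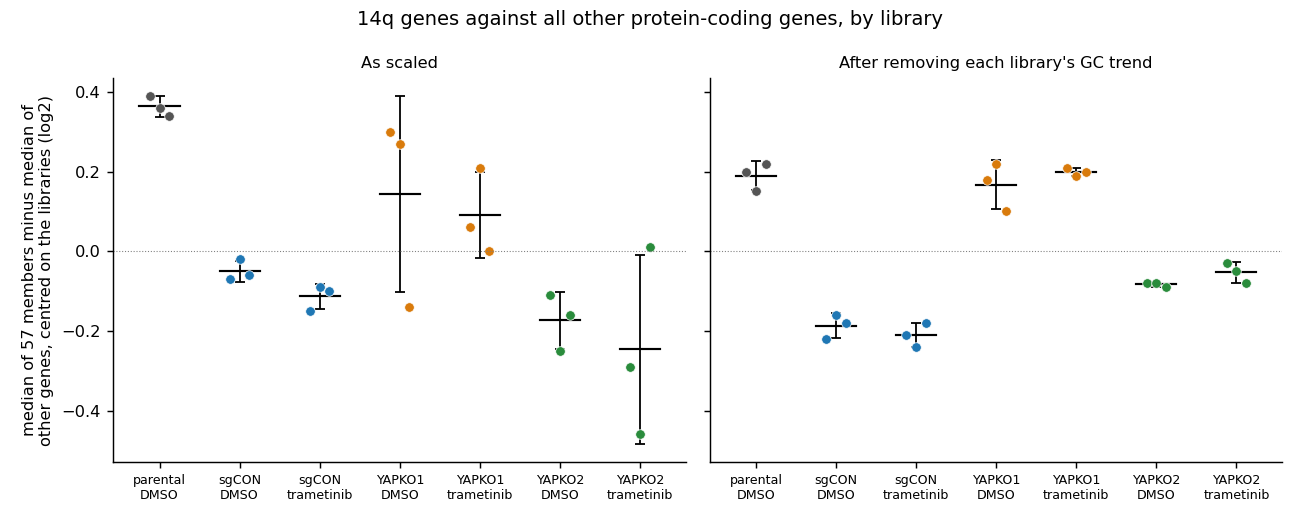
Median of the 57 members minus the median of 12107 other protein-coding genes (log2, each gene centred on its mean over the libraries), by library, as scaled (left) and with each library's GC trend removed (right). Points are libraries, and lines with bars are the mean and SD of 3. On the right the groups of a line lie together in DMSO and trametinib, with parental and YAPKO1 highest and sgCON lowest.

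The difference between sgCON and parental cells had a position along the arm. The proximal and distal ends stood at the parental level, and a long inner stretch stood lower. The members were divided into 4 stretches with edges set after seeing the values: APEX1 to STRN3 (8 members), ARHGAP5 to FNTB (24), ATP6V1D to PSMC1 (17) and CPSF2 to AKT1 (8). The median member changes from parental cells to sgCON in DMSO were 0.02, -0.60, -0.55 and -0.01 in that order. On the GC-corrected scale they were 0.05, -0.58, -0.55 and 0.00. In the 2 inner stretches 23 of 24 and 17 of 17 members lay below the median of other genes, against 4 of 8 and 5 of 8 at the ends. TIMM9, a chaperone of the mitochondrial intermembrane space, was the exception in the second stretch at 0.03. The non-member genes lying between did the same, with medians of -0.05 (74 genes), -0.51 (98), -0.47 (78) and 0.04 (59).

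Against parental cells, the YAPKO2 line shared the low stretch from ARHGAP5 to FNTB with sgCON but differed from sgCON on either side of it. With the GC trend removed, its median member changes in DMSO were -0.36, -0.52, 0.05 and -0.02 over the 4 stretches, so the proximal part stood low and the part from ATP6V1D on stood at the parental level. In YAPKO1 the corresponding values were -0.14, -0.03, 0.01 and -0.12. Without the correction the values of YAPKO2 were -0.45, -1.02, -0.03 and -0.31 and those of YAPKO1 were -0.19, -0.31, -0.17 and -0.28. The direct difference between YAPKO2 and YAPKO1 in DMSO was -0.37, -0.52, -0.03 and -0.02 with the correction. All 24 members from ARHGAP5 to FNTB, and all 8 before them, lay below the median of other genes in that comparison, beside 10 of 17 and 4 of 8 further out.

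The levels of single libraries are given for both inner stretches as a description, since the edges were set after seeing these values. From ARHGAP5 to FNTB, with the GC trend removed, the median change from the parental mean was -0.63, -0.55 and -0.59 in sgCON, 0.01, -0.01 and -0.14 in YAPKO1, and -0.52, -0.58 and -0.56 in YAPKO2, all in DMSO. From ATP6V1D to PSMC1 it was -0.52, -0.59 and -0.51 in sgCON, -0.09, 0.01 and -0.10 in YAPKO1, and -0.02, 0.07 and 0.08 in YAPKO2. The first stretch placed YAPKO2 with sgCON, and the second placed it with YAPKO1. With trametinib the values from ARHGAP5 to FNTB were -0.58, -0.57 and -0.46 in sgCON, 0.01, 0.02 and -0.02 in YAPKO1, and -0.62, -0.69 and -0.59 in YAPKO2. From ATP6V1D to PSMC1 they were -0.56, -0.46 and -0.55, then 0.13, -0.03 and -0.01, then -0.10, 0.13 and 0.04 in the same order. The lines thus kept their levels in both treatments.

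**Figure D3:**
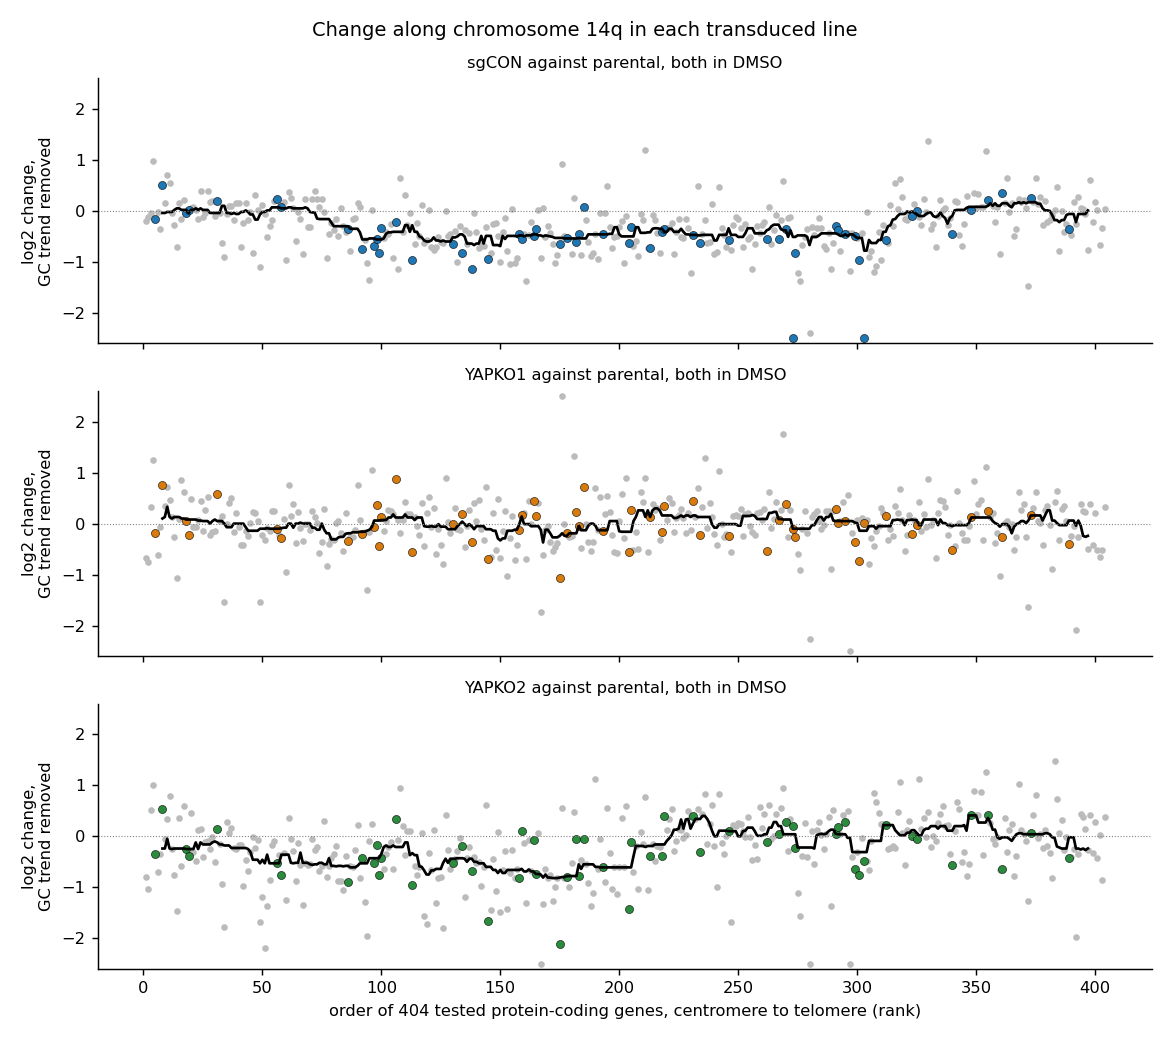
Log2 change from parental cells with the GC trend removed (y axis) for 404 tested protein-coding genes in their order along 14q (x axis, rank), in sgCON, YAPKO1 and YAPKO2, all in DMSO. Coloured points are the 57 members, grey points other genes, and the line is a running median of 15 genes. Changes beyond 2.5 are drawn at 2.5. The sgCON line dips over the inner stretch, YAPKO2 over its proximal part and the genes before it, and YAPKO1 stays near 0.

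**Figure D4:**
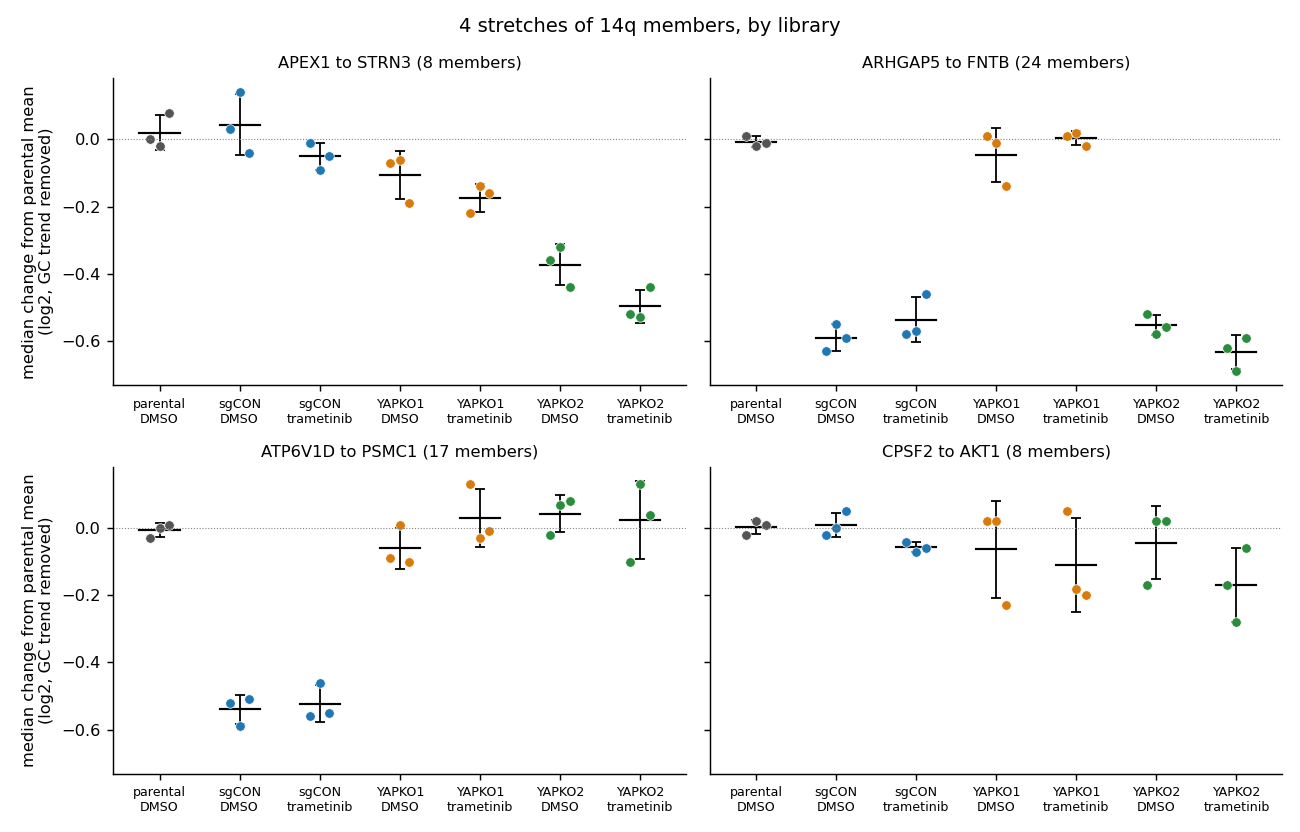
Median change from the parental mean (log2, GC trend removed) of the members of 4 stretches of 14q, by library. Points are libraries, and lines with bars are the mean and SD of 3. From ARHGAP5 to FNTB, sgCON and YAPKO2 lie near -0.6 and the others near 0, and from ATP6V1D to PSMC1 sgCON alone is low.

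In number, 1 member stood higher in sgCON than in parental cells at an adjusted p under 0.05 (limma), beside 7.99% of all tested genes, and 26 stood lower, beside 7.87%. Against parental cells YAPKO1 gave 4 higher (14.8% of all genes) and 8 lower (12.4%), and YAPKO2 gave 2 higher (20.0%) and 33 lower (17.8%). Against sgCON in DMSO, YAPKO1 gave 17 higher (6.18%) and 0 lower (5.81%), with 24 members at an unadjusted p under 0.05. YAPKO2 gave 14 higher (14.1%) and 11 lower (13.1%). In trametinib, 21 members (7.81%) stood above sgCON and 0 (7.18%) below it in YAPKO1. For YAPKO2, 9 (17.7%) stood above and 13 (18.6%) below. YAPKO2 against YAPKO1 in DMSO gave 1 higher (3.73%) and 13 lower (3.23%). The members were chosen with these comparisons known, so nothing is read from the counts.

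With the GC trend removed, YAPKO2 against sgCON gave 22 higher and 8 lower in DMSO and 21 higher and 11 lower in trametinib. Against parental cells it gave 7 higher and 21 lower, and YAPKO1 gave 10 higher and 9 lower. Shares of all genes in the corrected fit are not given, so nothing is read from these counts either. Leaving out libraries also moved the counts. For YAPKO2 against YAPKO1 the 14 became 29 without both YAPKO1 in DMSO replicate 3 and YAPKO2 in trametinib replicate 2, each the library with the highest GC trend of its group, 6 without YAPKO1 in DMSO replicate 1, 5 without its replicate 2 and 6 without YAPKO2 in DMSO replicate 2. Without this last library the 25 between YAPKO2 and sgCON in DMSO became 13. Without YAPKO1 in DMSO replicate 3 the 12 between YAPKO1 and parental cells became 7, and without YAPKO2 in trametinib replicate 3 the 22 between YAPKO2 and sgCON in trametinib became 35.

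Among 23 chromosomes (1 to 22 and X), chromosome 14 had the second lowest median change in sgCON against parental cells, at -0.30 over its 404 genes. Chromosome 3 was lower, at -0.36, and the next after chromosome 14 was chromosome 15 at -0.04. In the GC-corrected fit chromosome 14 kept -0.30 and its place. Between YAPKO1 and sgCON chromosome 14 was the highest of the 23, at 0.22 both in DMSO and in trametinib, and at 0.30 and 0.32 with the GC trend removed. Between YAPKO2 and YAPKO1 in DMSO it was the lowest, at -0.23, with chromosome 2 almost equal at -0.22. With the GC trend removed these were -0.22 and -0.17. For YAPKO2 against sgCON in DMSO the median of chromosome 14 was -0.03, and 0.05 with the GC trend removed. Chromosome 6 also differed between lines. Its median was the highest of the 23 in sgCON against parental cells, at 0.20 with and without the correction. In YAPKO1 against sgCON in DMSO it was the lowest, at -0.25, or -0.19 with the GC trend removed.

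Of the 6 proteasome members, PSME1 and PSME2 form the activator cap of the proteasome, PSMA6 and PSMA3 belong to its core, and PSMC6 and PSMC1 are ATPases of its base. PSMA6 stood at 234, 209 and 219 FPKM in parental cells, 187, 193 and 171 in sgCON, 341, 366 and 349 in YAPKO1 and 203, 248 and 247 in YAPKO2, all in DMSO. YAPKO1 was above the parental range and the sgCON line below it. PSMC1, the outermost member of the inner stretch, stood at 128, 125 and 122 in parental cells, 80.9, 80.9 and 81.6 in sgCON, 137, 135 and 112 in YAPKO1 and 126, 139 and 133 in YAPKO2, so sgCON alone lay apart. PSME2 stood at 77.8, 67.5 and 78.9 in parental cells, 74.1, 85.0 and 73.1 in sgCON, 63.4, 62.9 and 62.8 in YAPKO1 and 40.1, 54.9 and 45.1 in YAPKO2. PSME1 ran at 97, 88.4 and 94.6, then 105, 119 and 107, then 86.3, 93.2 and 105, then 65.0, 77.2 and 76.1 in the same order of lines. Both cap subunits, which lie before the inner stretch, were lowest in YAPKO2. The 28 tested proteasome subunits on other chromosomes had a median change of 0.15 from parental cells to sgCON, beside -0.37 for the 6 members, and 1 of the 28 was higher (7.99% of all tested genes) and 1 lower (7.87%). After GC correction the medians were 0.19 and -0.34, with 8 of the 28 higher. From sgCON to YAPKO2 in DMSO the medians were 0.17 and -0.66, with 7 of the 28 higher (14.1% of all genes) and 2 lower (13.1%), and 2 of the 6 members higher and 2 lower. On the GC-corrected scale the medians were 0.12 and -0.34. PSMD4, a ubiquitin receptor of the proteasome that is not on chromosome 14, changed most among the other subunits in that comparison, by 0.96 ± 0.10 (SE, limma, adjusted p = 2.45e-06).

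Among the 10 members for DNA repair, chromatin and transcription, the median change from parental cells was -0.15 in sgCON and -0.45 in YAPKO2, or -0.10 and -0.30 with the GC trend removed. APEX1, an endonuclease of base excision repair, stood at 120, 119 and 132 FPKM in parental cells, 173, 182 and 177 in sgCON, 189, 228 and 274 in YAPKO1 and 185, 221 and 207 in YAPKO2. All transduced libraries thus lay above the parental ones. SNW1, which acts in splicing and in transcription, stood at 47.4, 57.2 and 48.8 in parental cells, 35.5, 35.8 and 35.5 in sgCON, 57.5, 47.7 and 39.6 in YAPKO1 and 56.2, 48.2 and 59.1 in YAPKO2. YY1, a transcription factor that binds both active and silenced genes, had the smallest difference in both knockout lines from the change of other genes against sgCON in DMSO. It stood at 28.8, 33.0 and 33.2 in parental cells, 36.1, 36.1 and 33.8 in sgCON, 37.7, 34.9 and 27.4 in YAPKO1 and 36.2, 33.3 and 39.2 in YAPKO2. These ranges overlapped between sgCON and each knockout line. SEL1L and AKT1 were the next closest.

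The 8 members for RNA processing and translation had a median change of -0.35 in sgCON against parental cells, with and without the GC correction. In YAPKO2 the median was -0.21, and 0.17 with the correction. EIF2B2, a subunit of the exchange factor that recycles the initiation factor eIF2, stood at 31.1, 32.9 and 33.8 FPKM in parental cells, 26.8, 24.7 and 25.4 in sgCON, 40.8, 46.7 and 55.1 in YAPKO1 and 39.8, 50.4 and 47.7 in YAPKO2. The sgCON line was below the parental range and both knockout lines above it. ERH, a small conserved protein that takes part in RNA processing, stood at 243, 211 and 219 in parental cells, 153, 167 and 151 in sgCON, 275, 277 and 227 in YAPKO1 and 237, 221 and 238 in YAPKO2. Here the knockout lines overlapped parental cells and sgCON did not. The 9 tested subunits and partners of eIF2 and eIF2B on other chromosomes had a median change of 0.08 from parental cells to sgCON. Of these, 1 was higher (7.99% of all tested genes) and 0 lower (7.87%). After GC correction the median was 0.09, with the same counts. EIF5B, a subunit-joining factor in that list, changed most from sgCON to YAPKO2 in DMSO, by -1.03 ± 0.35 (limma, adjusted p = 0.037). No other gene of the list passed the test there without the GC correction. With it, 2 of the 9 were higher and 1 lower.

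The 12 members of secretory, lysosomal and vesicle traffic had a median change of -0.61 in sgCON, -0.42 in YAPKO1 and -0.68 in YAPKO2 against parental cells. In the GC-corrected fit these were -0.60, -0.18 and -0.44, so that sgCON, not YAPKO2, was lowest. SEC23A, an inner subunit of the COPII coat that buds vesicles from the endoplasmic reticulum, stood at 81.6, 84.1 and 91.4 FPKM in parental cells and 43.7, 39.4 and 43.7 in sgCON. It stood at 52.6, 47.4 and 48.4 in YAPKO1 and 32.6, 33.4 and 38.0 in YAPKO2, so all 3 transduced lines lay below the parental range. KTN1, which encodes the endoplasmic reticulum protein kinectin, stood at 72.2, 81.2 and 76.9 in parental cells, 50.3, 49.3 and 48.2 in sgCON, 52.8, 34.8 and 11.8 in YAPKO1 and 20.6, 6.31 and 9.66 in YAPKO2. Its spread within the knockout lines was wide, the lowest YAPKO1 library being the one with the high GC trend. NPC2, a lysosomal carrier of cholesterol, stood at 24.1, 25.8 and 26.6 in parental cells, 16.3, 16.6 and 18.1 in sgCON, 19.0, 17.6 and 17.8 in YAPKO1 and 23.1, 25.6 and 26.8 in YAPKO2. YAPKO1 thus overlapped sgCON for this gene, as it did for NUMB, the member just before it. For DLST, the member just after it, YAPKO1 lay above sgCON without overlap. The 16 COPII and exocyst subunits on other chromosomes had a median change of -0.13 from parental cells to sgCON. Of these, 1 was higher (7.99% of all tested genes) and 1 lower (7.87%). After GC correction the median was -0.10, with 2 higher and 4 lower. EXOC2, an exocyst subunit, differed most in that comparison, by 0.77 ± 0.10 (limma, adjusted p = 6.18e-05).

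The 15 members of signalling and cytoskeleton had medians of -0.67, -0.37 and -1.02 against parental cells in sgCON, YAPKO1 and YAPKO2. With the GC trend removed they were -0.62, -0.20 and -0.43, so the order of sgCON and YAPKO2 reversed. SOS2, an exchange factor that loads RAS with GTP upstream of the MEK kinases, stood at 12.7, 13.1 and 12.1 FPKM in parental cells, 4.85, 5.39 and 6.01 in sgCON, 8.65, 9.33 and 5.73 in YAPKO1 and 6.27, 4.07 and 5.99 in YAPKO2. All 3 transduced lines lay below parental cells. FNTB, the beta subunit of the farnesyltransferase that modifies RAS, stood at 9.38, 12 and 7.55 in parental cells, 5.59, 6.14 and 4.85 in sgCON, 9.40, 11.4 and 13.5 in YAPKO1 and 7.25, 9.06 and 7.98 in YAPKO2. Its reads can be shared with the readthrough gene CHURC1-FNTB, so its level is uncertain. NUMB, an inhibitor of Notch signalling, stood at 10.6, 9.06 and 11.3 in parental cells, 6.06, 7.99 and 5.62 in sgCON, 7.67, 7.33 and 8.60 in YAPKO1 and 10.0, 9.61 and 10.6 in YAPKO2. AKT1, the kinase near the end of the arm, stood at 69.2, 70.8 and 65.4 in parental cells, 56.2, 51.9 and 65.4 in sgCON, 57.8, 60.2 and 69.9 in YAPKO1 and 63.0, 77.3 and 57 in YAPKO2. Its groups overlapped throughout.

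KLHDC2, a substrate receptor of a ubiquitin ligase, stood at 31.4, 28.1 and 26.2 FPKM in parental cells, 15.1, 15.4 and 16.4 in sgCON, 32.1, 28.8 and 21.5 in YAPKO1 and 17.4, 17.9 and 20.8 in YAPKO2. It shows the pattern of the stretch from ARHGAP5 to FNTB, in which sgCON and YAPKO2 were low and YAPKO1 was not. NIN, a protein of the centrosome, stood at 21.7, 20.6 and 20.2 in parental cells, 9.51, 11.4 and 10.1 in sgCON, 13.5, 13.2 and 8.43 in YAPKO1 and 7.06, 3.61 and 6.19 in YAPKO2. CFL2, an actin-severing cofilin, stood at 65.3, 65.6 and 66.6 in parental cells, 40.7, 38.2 and 33.3 in sgCON, 42.5, 40.4 and 30.6 in YAPKO1 and 23.8, 21.4 and 29.5 in YAPKO2. By FPKM, both were below the parental range in every transduced line and lowest in YAPKO2. With the GC trend removed NIN stayed lowest in YAPKO2, at a log2 change from parental cells of -1.67, beside -0.94 for sgCON. CFL2 did not keep this order after correction, since sgCON stood at -0.82 and YAPKO2 slightly higher at -0.76. SYNE2, which ties the nucleus to actin, stood at 10.4, 11.6 and 14.8 in parental cells, 7.88, 7.81 and 6.73 in sgCON, 9.04, 8.70 and 6.14 in YAPKO1 and 5.76, 3.05 and 3.78 in YAPKO2. STRN3, a scaffold of the STRIPAK phosphatase complex, is the last member before the inner stretch. Its values were 10.3, 12.3 and 14.3 in parental cells, 9.90, 8.58 and 9.24 in sgCON, 10.4, 10.0 and 5.03 in YAPKO1 and 5.16, 4.58 and 5.02 in YAPKO2. YAPKO2 lay below sgCON for both genes.

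The 6 chaperone and metabolism members had medians of -0.35, 0.18 and -0.15 against parental cells in sgCON, YAPKO1 and YAPKO2, and of -0.31, 0.17 and -0.01 with the GC trend removed. DLST, a subunit of the 2-oxoglutarate dehydrogenase complex, stood at 38.4, 37.2 and 38.2 FPKM in parental cells, 25.1, 24.2 and 28 in sgCON, 36.3, 42.6 and 52.2 in YAPKO1 and 41.3, 44.9 and 44.5 in YAPKO2. The sgCON line again lay alone below the parental range. HSP90AA1, the inducible cytosolic HSP90, lies in the distal stretch and differed in another way. It stood at 298, 308 and 290 in parental cells, 365, 362 and 385 in sgCON, 296, 295 and 115 in YAPKO1 and 196, 115 and 162 in YAPKO2. The knockout libraries all lay below sgCON, with a wide spread, and near-identical copies of the gene make its level uncertain.

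Of 24 other well-known 14q genes, 15 were tested, with a median change of -0.48 from parental cells to sgCON, and 1 of the 15 was higher (7.99% of all tested genes) and 4 lower (7.87%). After GC correction the median was -0.43, with 1 higher and 6 lower. FOS and JDP2, neighbours of NEK9 that encode factors of the AP-1 family, had means of 1.24 ± 0.633 and 2.76 ± 0.838 FPKM (SD, n = 3) in parental cells and of 0.276 ± 0.0796 and 0.825 ± 0.255 in sgCON in DMSO. For JDP2 the means in DMSO were 1.56 ± 0.519 in YAPKO1 and 0.907 ± 0.39 in YAPKO2, so YAPKO2 overlapped sgCON. MAX, the partner of MYC and MYCN, stood at 16.2 ± 0.601 in parental cells, 15.1 ± 1.87 in sgCON, 22.4 ± 2.80 in YAPKO1 and 15.6 ± 0.209 in YAPKO2. HIF1A, the oxygen-regulated transcription factor, stood at 88.3 ± 10.4, 61.7 ± 3.55, 49.7 ± 20.2 and 27.7 ± 6.05 in the same order.

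Trametinib was compared with DMSO within each line, a contrast that the choice of members did not use. In sgCON 0 members rose (limma, adjusted p under 0.05), beside 2.28% of all tested genes, and 2 fell, beside 2.94%. In YAPKO1 1 rose (3.97%) and 1 fell (3.88%), and in YAPKO2 2 rose (8.59%) and 7 fell (11.5%). The members past the threshold in either direction were 3.51% of the set in sgCON, 3.51% in YAPKO1 and 15.8% in YAPKO2. Whether these counts differ from the shares of all genes was not tested. On the GC-corrected scale the counts were 1 and 1 in sgCON, 5 and 0 in YAPKO1, and 8 and 9 in YAPKO2. With quantile normalization they were 0 and 0, 3 and 0, and 3 and 5, and the uncalibrated values gave 0 and 0, 2 and 1, and 3 and 5. Shares of all genes under these other settings are not given, so these counts cannot be set against them. The median change of all members was -0.07, -0.10 and -0.12 in the 3 lines, beside -0.02, -0.04 and -0.03 for other protein-coding genes. The count in YAPKO2 was 20 without its trametinib replicate 3 and 5 without its trametinib replicate 1. The count in YAPKO1 was 1 without DMSO replicate 2 or trametinib replicate 3, and that in sgCON was 0 or 1 without any 1 of its 6 libraries.

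EIF2S1, the alpha subunit of eIF2 on which stress kinases act, passed the test as lower in all 3 lines, with calls in sgCON and YAPKO1 that most or some other settings lost. It went from 155, 166 and 154 FPKM in DMSO to 117, 128 and 124 in trametinib in sgCON. In YAPKO1 it went from 207, 235 and 187 to 167, 165 and 136, and in YAPKO2 from 177, 195 and 196 to 109, 111 and 118. The treated and untreated libraries did not overlap in any of the lines. The log2 changes were -0.36 ± 0.09 (limma, adjusted p = 0.0304), -0.43 ± 0.09 (adjusted p = 0.00816) and -0.75 ± 0.09 (adjusted p = 2.18e-05). In the GC-corrected fit the call was lost in sgCON (adjusted p = 0.566) and in YAPKO1 (adjusted p = 0.404). Over all other settings run, left-out libraries included, the call was lost in 11 of 16 in sgCON, among them each left-out library, in 6 of 17 in YAPKO1 and in 0 of 17 in YAPKO2.

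MTHFD1 and PARP2 fell with trametinib in YAPKO2 and differed in response from sgCON. MTHFD1 encodes a folate enzyme that supplies units for nucleotide synthesis. In YAPKO2 it went from 56.9, 68.9 and 64.6 FPKM to 38.5, 37.0 and 30.7, a log2 change of -0.84 ± 0.11 (limma, adjusted p = 5.71e-05). In sgCON it went from 51.9, 59.3 and 56.7 to 65.7, 53.1 and 54.2, and in YAPKO1 from 72.7, 83.9 and 90.5 to 84.3, 74.6 and 71.1, with overlapping values in both. PARP2, a DNA-break sensor, went from 16.6, 15.7 and 13.3 to 6.69, 8.48 and 9 in YAPKO2, a log2 change of -0.88 ± 0.13 (adjusted p = 9.26e-05). In sgCON it stood at 17.4, 21.9 and 18.4 in DMSO and 18.9, 19.0 and 18.3 in trametinib. In YAPKO1 it stood at 20.2, 18.0 and 14.9 in DMSO and 13.7, 14.9 and 14.7 in trametinib. The response in YAPKO2 minus that in sgCON was -0.87 ± 0.16 for MTHFD1 (adjusted p = 0.00377) and -0.85 ± 0.18 for PARP2 (adjusted p = 0.00973). These were the only members past the threshold in that comparison, 2 of 57 and both lower, beside 3.03% of all genes that were lower. Without YAPKO2 in trametinib replicate 3 the count was 4, and with the GC trend removed 2 were higher and 3 lower. For YAPKO1 minus sgCON 0 members passed, beside 0.249% of all genes, with 2 at an unadjusted p under 0.05 in the same limma fit.

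NPC2 rose with trametinib in both knockout lines, from 19.0, 17.6 and 17.8 FPKM to 30.0, 23 and 31.1 in YAPKO1 and from 23.1, 25.6 and 26.8 to 36.5, 48.6 and 37.4 in YAPKO2. The log2 changes were 0.60 ± 0.12 (limma, adjusted p = 0.00487) and 0.68 ± 0.12 (adjusted p = 0.000718). In sgCON it went from 16.3, 16.6 and 18.1 to 17.1, 18.3 and 19.9, a change of 0.11 ± 0.12 (adjusted p = 0.706). The difference in response from sgCON did not pass the threshold for YAPKO2 (0.56 ± 0.17, adjusted p = 0.0753) or YAPKO1 (0.49 ± 0.17, adjusted p = 0.404). KLHDC2 rose in YAPKO2 from 17.4, 17.9 and 20.8 to 24.9, 22.9 and 33.2, a change of 0.51 ± 0.15 (adjusted p = 0.0201). Its call was lost in 4 of 17 other settings, 3 of them left-out libraries (YAPKO2 in DMSO replicates 1 and 2 and in trametinib replicate 3), with the lowest change at 0.35.

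The other falls in YAPKO2 were smaller. MGAT2, a Golgi enzyme of N-glycan synthesis, went from 11, 10.5 and 10.1 FPKM to 7.29, 7.74 and 8.48, a log2 change of -0.41 ± 0.11 (limma, adjusted p = 0.0121). CNIH1, a cargo receptor of the COPII vesicle, went from 29.3, 26.6 and 32.8 to 20.6, 22 and 23.3 (-0.42 ± 0.11, adjusted p = 0.0129). ERH went from 237, 221 and 238 to 158, 157 and 209 (-0.42 ± 0.12, adjusted p = 0.0191). Treated and untreated libraries did not overlap for these 3 genes. The call was lost in 8 of 17 other settings for ERH, where the change came down to -0.26 with quantile normalization (adjusted p = 0.29). It was lost in 5 of 17 for CNIH1, where the change was -0.24 with the GC trend removed (adjusted p = 0.372), and in 2 of 17 for MGAT2. Left-out libraries that ended a call were YAPKO2 in trametinib replicate 1 for all 3 genes, YAPKO2 in DMSO replicate 3 for ERH and CNIH1, and YAPKO2 in DMSO replicate 1 and in trametinib replicate 2 for ERH. SUPT16H, a subunit of the histone chaperone FACT, went from 77.2, 83.2 and 87.6 to 58.3, 43.4 and 78.4 with overlap (-0.50 ± 0.17, adjusted p = 0.0442), and the call was lost without YAPKO2 in trametinib replicate 2 (adjusted p = 0.213). In sgCON the already low NEK9 fell by 0.53 on the log2 scale (SE 0.15, adjusted p = 0.046), a call lost without either of its DMSO replicates 1 and 2 (adjusted p = 0.197 and 0.148) or any 1 of its trametinib replicates.

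**Figure D5:**
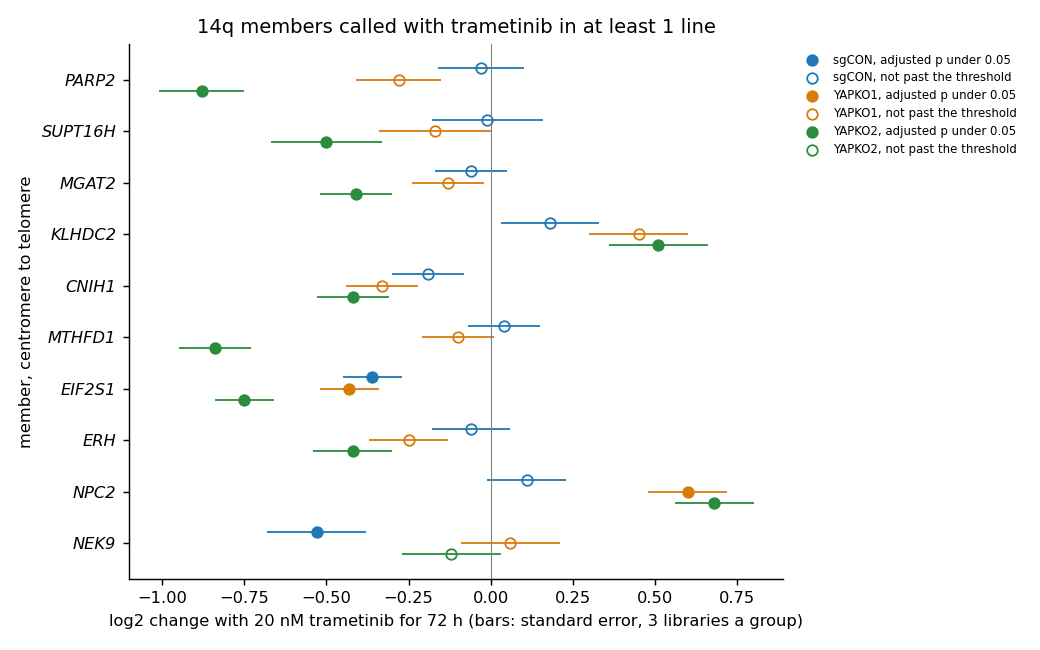
Log2 change with 20 nM trametinib for 72 h (x axis, with standard errors, 3 libraries a group) of the members that passed the test in at least 1 line, in gene order, for sgCON, YAPKO1 and YAPKO2. Filled points have an adjusted p under 0.05 (limma). EIF2S1 is filled in all 3 lines, and PARP2 and MTHFD1 in YAPKO2 alone.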

How the data were processed

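RNA was measured in 21 libraries of 7 groups, as the labels give them. Columns whose heading gives DMSO and a number but no line were taken as the parental samples. The authors deposited FPKM values, and the tools named are STAR 2.4.2 and RSEM 1.3.0 with build hg19, per the submitters' processing notes. Libraries came from a stranded total RNA kit with ribosomal depletion, per the labels' protocols. Whether strand was used in quantification is not given in the sources used here.

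The calibrated table was scaled by the median, over genes, of each library's ratio to the geometric mean of all libraries, and the filter of FPKM 1 in 3 libraries left 16092 genes (12164 protein-coding). In R 4.3.3, limma 3.58.1 was run on log2(FPKM + 0.5), using group means, eBayes with a trend, two-sided tests and Benjamini-Hochberg adjustment over all tested genes, and a threshold of 0.05. The script was tested on simulated data. Gene type, order and transcript GC content came from GENCODE v29, an annotation on GRCh38, matched by gene ID, so only gene order is used from it. The GC correction is a spline with 5 degrees of freedom per library.

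The members, lists and comparisons were chosen with earlier results of these data known. Values in every library were given for the 8 largest called differences in each direction between each knockout line and sgCON in DMSO with no overlap of values (YAPKO1 had no such fall), for up to 5 called changes in each direction with trametinib per line, for the 3 members closest to other genes, and for SOS2, AKT1, FNTB, NUMB and HSP90AA1. PSMC1, SEC23A, TMED10 and APEX1 were in part added after their values were seen. Alternatives were other pseudocounts, filters, scalings, sample sets, a GC correction, a replicate block and leaving out each library.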

Additional observations from a re-analysis of the deposited data

Results flagged for a closer look

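The trametinib response of 2 members differed between YAPKO2 and sgCON in a test of the difference itself (limma, Benjamini-Hochberg over all tested genes). Both responses were lower in YAPKO2. The 2 are 3.51% of the members, beside 3.03% of all tested genes that were lower, so their number is near the share of all genes. For PARP2 the difference in response was -0.85 ± 0.18 (SE, adjusted p = 0.00973), with all 3 treated YAPKO2 libraries below the 3 untreated ones and overlapping values in sgCON. For MTHFD1 it was -0.87 ± 0.16 (adjusted p = 0.00377), with the same separation in YAPKO2 and overlap in sgCON. Both passed the threshold under all 23 other settings run, with values from -0.94 to -0.73 for PARP2 and from -0.95 to -0.78 for MTHFD1.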

How the results depend on the processing

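Numbers of members past the threshold changed with the GC correction, with the groups fitted together and with the libraries included, and the offset of the members from other genes changed with the GC correction and with the libraries included. With the GC correction the counts were 29 (17 without it) for YAPKO1 against sgCON in DMSO, 32 (21) in trametinib, 19 (12) for YAPKO1 against parental cells, 22 (14) for YAPKO2 against YAPKO1, 5 (2) and 17 (9) for trametinib in YAPKO1 and YAPKO2, and 5 (2) for the response of YAPKO2 minus sgCON. The offsets with it were 0.39 (0.19) for YAPKO1 against sgCON in DMSO, 0.49 (0.24) in trametinib, 0.12 (-0.15) for YAPKO2 against sgCON in DMSO and 0.09 (-0.12) in trametinib, so the last pair changed sign. They were -0.46 (-0.51) for sgCON, -0.04 (-0.24) for YAPKO1 and -0.30 (-0.57) for YAPKO2 against parental cells, and -0.01 (-0.05) for trametinib in sgCON. Quantile normalization gave -0.55 for sgCON against parental cells. Fitting only the groups compared gave counts of 11 (17) for YAPKO1 against sgCON in DMSO, 9 (22) for YAPKO2 against sgCON in trametinib, 43 (27) for sgCON against parental cells, 1 (14) for YAPKO2 against YAPKO1, and 0 (2) and 3 (9) for trametinib in YAPKO1 and YAPKO2. The count of 2 for trametinib in sgCON was 1 with a pseudocount of 1 or no filter, and 0 with either deposited table unscaled or quantile normalization. Shares of all genes are given only for the fit without these changes. Counts under other settings therefore show how the member counts move, not whether they exceed those of all genes.

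Same-numbered libraries did not pair: over 33 pairs, correlations of their deviations ran from -0.14 to 0.36, and no comparison had every pair over 0.1. With a replicate block the count for trametinib in sgCON was 1. The block together with the GC correction gave counts of 27 and 32 for YAPKO1 against sgCON in DMSO and trametinib, 5 and 17 for trametinib in YAPKO1 and YAPKO2, and 5 for the response of YAPKO2 minus sgCON, with the same offsets as the GC correction alone (0.39, 0.12, 0.49, 0.09, -0.46, -0.04, -0.30 and -0.01).

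Leaving out each library of the groups compared in turn gave counts of 20 to 22 for sgCON against parental, 7 to 18 for YAPKO1 against parental, 24 to 33 for YAPKO2 against parental, 15 to 19 for YAPKO1 against sgCON in DMSO and 13 to 22 for YAPKO2 against sgCON in DMSO. The counts were 16 to 18 for YAPKO1 against sgCON in trametinib, 18 to 35 for YAPKO2 against sgCON in trametinib, 5 to 17 for YAPKO2 against YAPKO1 in DMSO, 0 to 1 for trametinib against DMSO in sgCON, 1 to 3 for trametinib against DMSO in YAPKO1, 5 to 20 for trametinib against DMSO in YAPKO2, 0 throughout for the trametinib response of YAPKO1 minus sgCON and 2 to 4 for the trametinib response of YAPKO2 minus sgCON. The offsets were -0.53 to -0.48 for sgCON against parental, -0.35 to -0.09 for YAPKO1 against parental, -0.60 to -0.53 for YAPKO2 against parental, 0.06 to 0.37 for YAPKO1 against sgCON in DMSO, -0.23 to -0.02 for YAPKO2 against sgCON in DMSO and 0.18 to 0.33 for YAPKO1 against sgCON in trametinib. They were -0.28 to -0.03 for YAPKO2 against sgCON in trametinib, -0.46 to -0.29 for YAPKO2 against YAPKO1 in DMSO, -0.09 to -0.06 for trametinib against DMSO in sgCON, -0.11 to -0.02 for trametinib against DMSO in YAPKO1 and -0.22 to -0.05 for trametinib against DMSO in YAPKO2. Without YAPKO1 in DMSO replicate 3 the offset was 0.37 for YAPKO1 against sgCON in DMSO and -0.09 against parental cells, and without its replicate 1 these were 0.06 and -0.35. Without YAPKO2 in DMSO replicate 2 the offset of YAPKO2 against sgCON in DMSO was -0.02, and without its replicate 3 it was -0.23. In trametinib it was -0.03 without YAPKO2 replicate 2 and -0.28 without replicate 3. Leaving out both YAPKO1 in DMSO replicate 3 and YAPKO2 in trametinib replicate 2, a choice made after seeing the data, gave an offset of 0.37 for YAPKO1 against sgCON in DMSO and counts of 29 for YAPKO2 against YAPKO1 and 9 for trametinib in YAPKO1.

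Of 15 member changes with trametinib that passed the threshold, 265 values under other settings gave 203 past it, 62 short of it and 0 of opposite sign. Fitting only the groups compared lost 9 of the 15, quantile normalization 5 and the GC correction 3. The cause of these shifts was not tested. FPKM without counts give no counting error, so changes of members near 0, such as NEK9 and GALC in sgCON, rest on values whose depth is unknown. The edges of the 4 stretches were set after seeing the values.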

Other observations

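CHGA, a 14q gene outside the 57 that encodes the secretory granule protein chromogranin A, was singled out after its values were seen. In YAPKO2 it rose from 1.09 ± 0.293 FPKM (SD, n = 3) in DMSO to 21.3 ± 3.42 in trametinib, a log2(FPKM + 0.5) change of 3.79 ± 0.25 (SE, limma, adjusted p = 1.87e-08). In YAPKO1 it rose from 0.428 ± 0.248 to 2.22 ± 0.387 (1.58 ± 0.25, limma, adjusted p = 0.000582), and in sgCON from 0.0493 ± 0.0491 to 0.553 ± 0.293 (0.90 ± 0.25, adjusted p = 0.0444). The response in YAPKO2 minus that in sgCON was 2.89 ± 0.35 (limma, adjusted p = 0.000111), and for YAPKO1 it was 0.68 ± 0.35 (adjusted p = 0.748).

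Among the 28 tested proteasome subunits on other chromosomes, 11 fell and 0 rose with trametinib in YAPKO2 (limma, adjusted p under 0.05), beside 11.5% and 8.59% of all tested genes, with a median change of -0.30 beside -0.01 over all tested genes. With the GC trend removed 12 fell and 1 rose, with a median of -0.23. PSMD1, a scaffold subunit of the proteasome base, went from 108 ± 8.27 to 68.9 ± 7.15 FPKM (SD, n = 3), a log2 change of -0.65 ± 0.10 (SE, limma, adjusted p = 0.000156). In sgCON 1 of the 28 fell (2.94% of all tested genes) and 0 rose (2.28%). YAPKO1 also had 1 that fell (3.88%) and 0 that rose (3.97%). With the GC trend removed 0 fell in sgCON and 3 fell in YAPKO1, and 0 rose in either line. Without the correction, the 6 proteasome members had a median change of -0.25 in YAPKO2, close to that of the 28, and none passed in any line. Their lowest adjusted p was then 0.0655 (limma), for PSMC1 in YAPKO2, with a log2 change of -0.28 ± 0.10. With the GC trend removed the median of the 6 in YAPKO2 was -0.09, less of a fall than that of the 28, and 1 of the 6 passed as lower.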
